A study of Homo sapiens with 10 samples.

Results

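The SUMO conjugation and deconjugation machinery was followed through 8 genes chosen by name, SUMO3, SAE1, UBA2, PIAS1, PIAS2, PIAS3, SENP3 and SENP6, in T47D breast cancer cells with an inducible progesterone receptor (PR). Every probe set that listed 1 of these symbols alone was taken, and each gene is described first by its probe set of highest mean, the brightest one. Of the 8 genes, 7 had such a probe set, with 15 probe sets between them out of 22277 on the array, and all 7 were among the 10911 of 11963 genes whose highest array reached log2 6. UBA2 was not analysed here. Signals are log2 values from Robust Multi-array Average (RMA), so a difference of 1 is a doubling, and levels of different probe sets cannot be set against each other.

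SUMO is a small ubiquitin-like protein that is attached to lysines of other proteins. A heterodimer of SAE1 and UBA2, the E1 enzyme, activates it, and E3 ligases such as the PIAS proteins help to place it, while SENP proteases remove it again. PR itself is a SUMO target, and attachment at the lysine that is changed in the K388R mutant is known to restrain its transcriptional activity.

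RNA was measured on 10 Affymetrix human expression arrays, 1 per condition, from derivatives of the PR-null line T47D-Y: iKR, which carries the SUMO-deficient K388R mutant PR, iWT, which carries wild type PR, and iEV, which carries the empty vector. Expression from the vector is driven by the dimerizer AP21967, given for 2 days, and R5020, a synthetic progestin, was given for 6 h to serum-starved cells. The iKR and iWT lines were measured with AP21967 and R5020, with AP21967 and vehicle, with R5020 and no AP21967, and with neither, and the iEV line with AP21967 or without it, never with R5020. There was 1 line per vector, so a difference between lines cannot be told apart from a difference between vectors.

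All 10 luminal breast epithelial markers passed the level filter, with means over the arrays from 7.68 for TFF1 to 15.01 for KRT18. So did 4 of 4 measured basal markers, 4 of 6 fibroblast, 4 of 5 leukocyte and 3 of 4 endothelial ones, with means up to 9.70 for COL1A1. Passing the filter therefore does not tell these cell types apart. Some of the luminal markers differed between the conditions. With R5020 and AP21967, ESR1 fell by 0.79, FOXA1 by 1.01 and GATA3 by 0.39 (limma, adjusted p = 0.0016, 0.001 and 0.016), and between iKR and iWT, ESR1 was at -0.96, GATA3 at -0.27 and TFF3 at 0.34 (limma, adjusted p = 0.0016, 0.013 and 0.0075). Relative to iEV, 2 of the 10 were higher and 2 lower in iKR, and 1 was higher in iWT, where 21.6% and 19.9% of all genes were called. Over all genes, 11.5% were called with R5020 and AP21967, and 8.62% between iKR and iWT. The part of the luminal markers in the results on the SUMO genes was not tested. Of the markers of basal, fibroblast, leukocyte and endothelial cells that passed the filter, 0 were called by limma in any of the 6 comparisons, with at most 1 per list and comparison at an unadjusted p under 0.05. PGR, the gene of the receptor, read 10.65 or more on every iKR and iWT array, also without AP21967, and 6.17 and 6.25 on the iEV arrays. FKBP5, a progestin target, rose by 2.99 (log2) with R5020 when AP21967 was present (limma, adjusted p = 3.8e-07). Without AP21967 it was higher with R5020 too. It read 8.86 with R5020 and 8.04 with vehicle in iKR, and 9.11 with R5020 and 8.24 with vehicle in iWT. The 3 prime minus 5 prime difference of the array's control probe sets ran from -0.14 to -0.04 for GAPDH and from 0.04 to 0.19 for ACTB. The mean correlation of an array with the other 9 was lowest for iKR with AP21967 and R5020, at 0.989, against up to 0.995 elsewhere.

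Between the lines, 3 of the 7 members were called in iKR relative to iEV, where 21.6% of all genes were, and 2 of the 7 in iWT, where 19.9% were, so these counts are not read as particular to the members. PIAS1 was higher in both PR lines than in iEV, by 0.64 (1.56 fold) in iKR and 0.46 (1.38 fold) in iWT, PIAS2 was lower by 0.38 in iKR and 0.44 in iWT, and PIAS3 was lower by 0.27 in iKR, a call that most fits with 1 array left out did not keep. These fits also drew on R5020 arrays, which iEV lacked. SUMO3, SAE1, SENP3 and SENP6 did not pass the test in any comparison of lines. With R5020 in the presence of AP21967, 0 of the 7 members were called by limma (11.5% of all genes were), with 1 at an unadjusted p under 0.05, and with AP21967 alone 0 were (0.0% of all genes), with 0 at an unadjusted p under 0.05. At that unadjusted p, 1335 of all 10911 genes were higher and 1589 lower with R5020 and AP21967. PIAS1, PIAS2 and PIAS3 also varied most over the 10 arrays, with SDs of 0.27, 0.18 and 0.17 that stood at percentiles 90.9, 78.0 and 75.4 of all genes, whereas SUMO3 (0.07) and SENP3 (0.08) stood at percentiles 10.3 and 19.0.

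**Figure D1:**
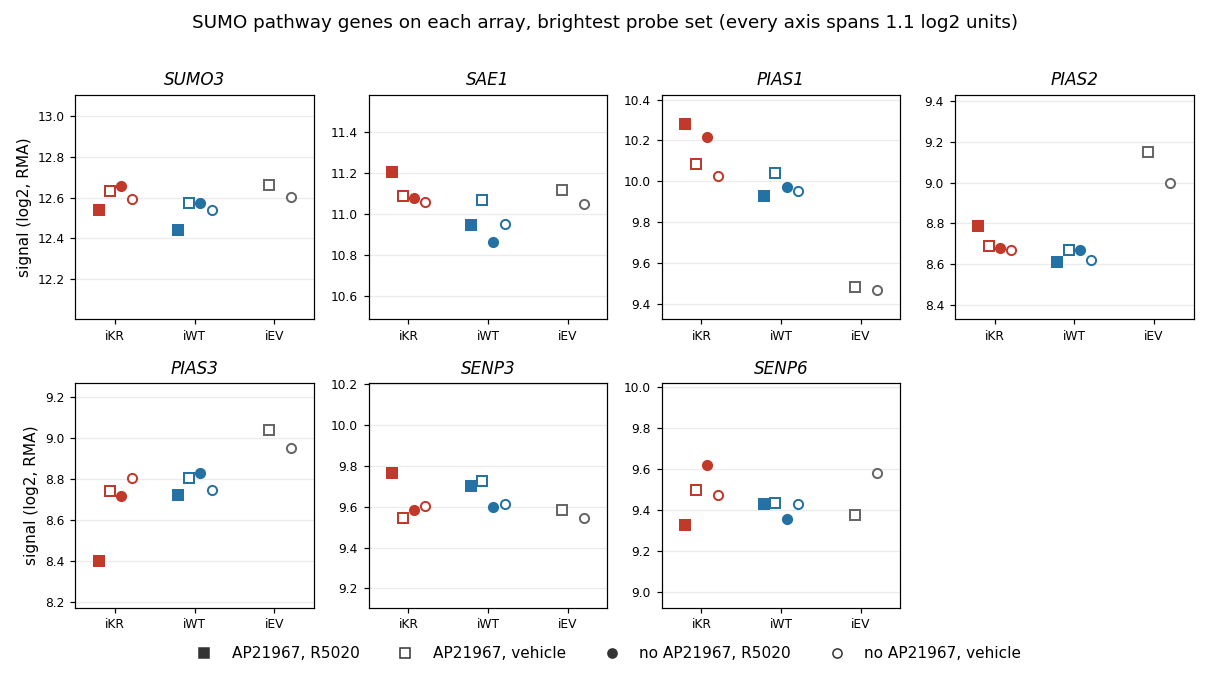
Signal (log2, RMA) of the brightest probe set of each of the 7 measured genes on the 10 arrays, by line (iKR, iWT, iEV), each point 1 array. Squares had AP21967, circles did not, and filled points had R5020. PIAS1 is higher on all 8 iKR and iWT arrays (9.93 or more) than on both iEV arrays (9.48 and 9.47), PIAS2 and PIAS3 are lower on all 8, and the other 4 genes overlap.

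PIAS1, PIAS2 and PIAS3 are E3 ligases with a SUMO-directing RING-like domain, first described as inhibitors of activated STAT proteins. Their promoter windows are shown as those of the members called between the lines, from 250 bases before to 50 after the annotated start, as given by RefSeq for GRCh38.p14. Windows were matched for 7 of the 8 genes, 9 windows in all. Capitals mark the GC box GGGCGG, the core of the Sp1 site, or its reverse complement.
PIAS1 (chr15:68054065-68054364, plus strand): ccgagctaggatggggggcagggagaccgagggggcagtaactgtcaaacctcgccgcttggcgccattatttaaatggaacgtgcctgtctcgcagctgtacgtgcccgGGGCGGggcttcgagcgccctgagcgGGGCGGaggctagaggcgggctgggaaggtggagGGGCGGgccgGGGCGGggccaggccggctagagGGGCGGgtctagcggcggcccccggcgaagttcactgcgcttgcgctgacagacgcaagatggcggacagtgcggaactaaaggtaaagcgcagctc
PIAS2 (chr18:46917458-46917757, minus strand): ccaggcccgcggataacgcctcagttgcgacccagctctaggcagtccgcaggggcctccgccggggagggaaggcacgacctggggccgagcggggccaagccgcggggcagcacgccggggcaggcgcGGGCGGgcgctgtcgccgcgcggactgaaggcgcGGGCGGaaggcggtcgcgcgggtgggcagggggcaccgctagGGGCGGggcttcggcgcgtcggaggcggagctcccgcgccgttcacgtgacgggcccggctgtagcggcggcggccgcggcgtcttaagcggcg
PIAS3 (chr1:145859032-145859331, minus strand): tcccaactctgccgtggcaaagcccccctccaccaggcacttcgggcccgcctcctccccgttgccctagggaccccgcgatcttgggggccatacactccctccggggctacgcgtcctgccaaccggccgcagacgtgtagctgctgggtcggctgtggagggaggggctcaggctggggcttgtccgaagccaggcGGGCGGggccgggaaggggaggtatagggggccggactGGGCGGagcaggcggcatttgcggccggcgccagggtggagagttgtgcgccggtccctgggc

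The PIAS1 window holds 5 GC boxes, the PIAS2 window 3 and the PIAS3 window 2, on either strand, and 45.0% of the 35116 windows of this length hold at least 1. Their GC content was 68.3% for PIAS1, 79.0% for PIAS2 and 72.3% for PIAS3, against a median of 58.7% over all windows. A second PIAS1 window and a second PIAS2 window hold no GC box. The second PIAS2 window, with 46.0% GC, holds the letters TATAAA at 2 places when both strands are counted. Counted so, 11.5% of all windows hold them. The hormone response half-site TGTTCT was searched on both strands, as was the full element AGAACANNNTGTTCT that contains it, and neither occurs in any of the 9 windows. The half-site is in 14.8% of all windows and the full element in 0.00285%. These counts describe the letters in the windows and no binding.

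PIAS1 read 10.28 with AP21967 and R5020, 10.09 with AP21967 and vehicle, 10.22 with R5020 alone and 10.02 with neither in iKR. It read 9.93, 10.04, 9.97 and 9.95 in the same order in iWT. In iEV it read 9.48 with AP21967 and 9.47 without. All 8 arrays of the PR lines lay above both iEV arrays, with a gap of 0.44 to the nearest. Means were 10.15 ± 0.12 in iKR (SD over 4 arrays of unlike treatment), 9.97 ± 0.05 in iWT and 9.48 ± 0.01 in iEV (2 arrays, without R5020). The iKR and iWT arrays overlapped, and the difference between these lines was not called (limma, adjusted p = 0.10). The difference in iKR from iEV was 0.64 (SE 0.08, limma, adjusted p = 0.00035), and in iWT from iEV 0.46 (SE 0.08, limma, adjusted p = 0.0026). Both comparisons use the same 2 iEV arrays. They also draw on the R5020 arrays of the PR lines, which iEV lacks. In pairs of arrays with vehicle, iKR exceeded iEV by 0.56 without AP21967 and 0.60 with it, and iWT by 0.49 and 0.56. Both other PIAS1 probe sets ran the same way: one was higher by 0.30 in iKR and 0.24 in iWT (limma, adjusted p over all probe sets = 0.0099 and 0.031), and the other by 0.46 in iKR and 0.28 in iWT (0.002 and 0.031).

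PIAS2 ran the other way. In iKR it read 8.79 with AP21967 and R5020, 8.69 with AP21967 and vehicle, 8.68 with R5020 alone and 8.67 with neither, and in iWT 8.61, 8.67, 8.67 and 8.62. In iEV it read 9.15 with AP21967 and 9.00 without. Every array of the PR lines lay below both iEV arrays, the nearest by 0.21, while iKR and iWT lay within 0.17 of each other. PIAS2 was lower by 0.38 in iKR (SE 0.07, limma, adjusted p = 0.0027) and by 0.44 in iWT (SE 0.07, limma, adjusted p = 0.0012), relative to iEV. A second probe set, at a mean of 6.41, fell by 0.71 in iKR and 0.66 in iWT (limma, adjusted p over all probe sets = 0.00028 and 0.00047). The remaining one, at a mean of 4.95, did not exceed 5.36 on any array, under the level of log2 6 asked of a gene, and is not read here.

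PIAS3 has a single probe set. It read 8.40 with AP21967 and R5020, 8.74 with AP21967 and vehicle, 8.72 with R5020 alone and 8.81 with neither in iKR. It read 8.72, 8.81, 8.83 and 8.75 in iWT, and 9.04 with AP21967 and 8.95 without in iEV. All 8 arrays of the PR lines lay below both iEV arrays, by 0.12 or more, and the iKR array with AP21967 and R5020 stood apart below the rest. PIAS3 was lower by 0.27 in iKR than in iEV (SE 0.08, limma, adjusted p = 0.040), and differed by -0.16 between iWT and iEV (SE 0.08, limma, adjusted p = 0.22). The difference between iKR and iWT was -0.11 (limma, adjusted p = 0.35), so the PR lines were not shown to differ from each other. On the arrays without R5020 alone, the differences from iEV were -0.22 in both iKR and iWT (limma, adjusted p = 0.036 and 0.040).

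**Figure D2:**
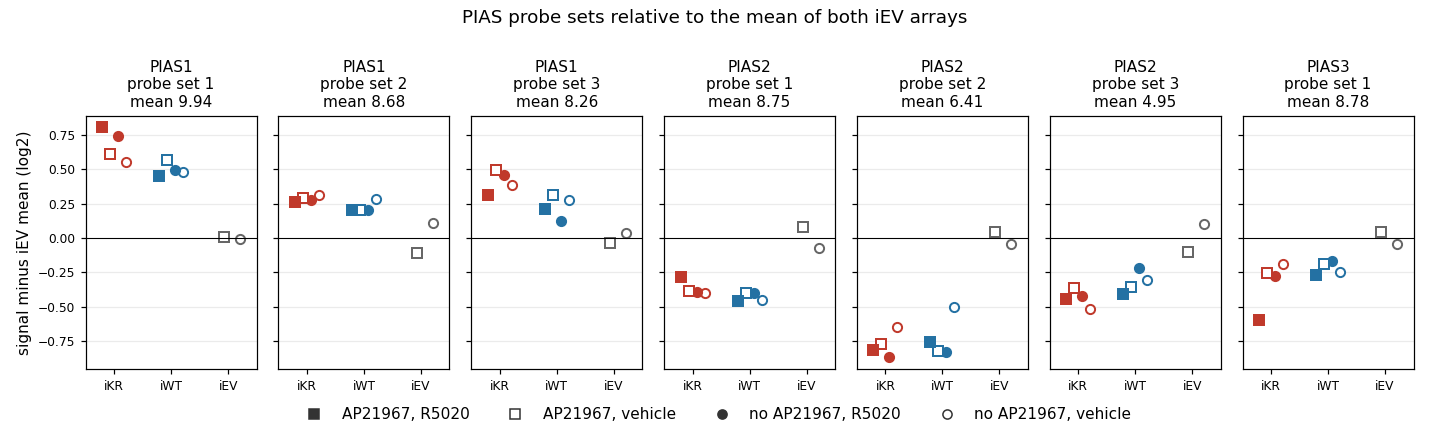
All 7 probe sets of PIAS1, PIAS2 and PIAS3, as signal minus the mean of both iEV arrays (log2), by line, each point 1 array with the mean over 10 arrays above each panel. All 8 points of the PR lines lie above both iEV points for the 3 PIAS1 probe sets and below them for the 3 PIAS2 probe sets, the dimmest of which is under log2 6 on every array, and the PIAS3 probe set.

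Counted over the members, 1 rose and 2 fell in iKR relative to iEV, 3 of 7, where 21.6% of all 10911 genes were called (11.5% higher and 10.1% lower). In iWT relative to iEV 1 rose and 1 fell, 2 of 7, where 19.9% of all genes were called (9.43% higher and 10.4% lower). The median over the members was 0.01 in iKR and -0.09 in iWT, against 0.00 and 0.01 over all genes. Among single pairs of arrays on the brightest probe sets, only PIAS1 in iKR against iEV with AP21967 and vehicle was past 1.5 fold. It was at 0.60, and 5.21% of all genes were past 1.5 fold in that pair. The second PIAS2 probe set was past it against iEV at -0.60 in iKR without AP21967, -0.82 in iKR with it and -0.87 in iWT with it. In iWT without AP21967 it was not. In the same way, 3 of 7 brightest probe sets had all 8 PR arrays on one side of both iEV arrays, against 26.6% of all genes (12.8% above and 13.8% below). The call of PIAS2 in iKR and of PIAS1 in iWT ended without the iEV array with AP21967 (limma, adjusted p = 0.068 and 0.054), and that of PIAS3 in iKR ended in 7 of 10 fits with 1 array left out (limma, adjusted p = 0.065 to 0.31). These 7 left out either iEV array, any iWT array but the one with AP21967 and R5020, the iKR array with R5020 alone or the iKR array with AP21967 and vehicle.

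SUMO3, 1 of the modifiers that can form chains, read 12.54 with AP21967 and R5020, 12.63 with AP21967 and vehicle, 12.66 with R5020 alone and 12.59 with neither in iKR. It read 12.44, 12.57, 12.57 and 12.54 in iWT, and 12.66 with AP21967 and 12.60 without in iEV. The lines overlapped, the whole range over 10 arrays was 0.22, and the fitted differences from iEV were -0.01 in iKR and -0.09 in iWT (limma, adjusted p = 0.92 and 0.35). A second SUMO3 probe set ranged from 9.94 to 10.36 and overlapped too.

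SAE1, the smaller subunit of the E1 enzyme, read 11.21 with AP21967 and R5020, 11.09 with AP21967 and vehicle, 11.08 with R5020 alone and 11.06 with neither in iKR. It read 10.95, 11.07, 10.86 and 10.95 in iWT, and 11.12 with AP21967 and 11.05 without in iEV. Only the iWT array with AP21967 and vehicle overlapped the iKR arrays. The iEV array with AP21967 lay within the iKR range, and the one without lay just below it. SAE1 was 0.03 from iEV in iKR and -0.12 in iWT (limma, adjusted p = 0.79 and 0.30).

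The proteases SENP3, a nucleolar enzyme that prefers SUMO2 and SUMO3, and SENP6, which trims SUMO chains, did not separate the lines. SENP3 ranged from 9.54 to 9.77 in iKR, from 9.60 to 9.73 in iWT and from 9.55 to 9.59 in iEV. SENP6 ranged from 9.32 to 9.62 in iKR, from 9.36 to 9.43 in iWT and from 9.38 to 9.58 in iEV. The highest SENP3 value, 9.77, and the lowest SENP6 value, 9.32, were both on the iKR array with AP21967 and R5020. Fitted differences from iEV were 0.04 in iKR and 0.07 in iWT for SENP3, and 0.01 in iKR and -0.05 in iWT for SENP6 (limma, adjusted p of 0.53 or more). Their 3 dimmer probe sets, at means of 5.62 to 6.64, overlapped between the PR lines and iEV as well. The dimmest, of SENP6, did not exceed 5.85 on any array, under the level of log2 6 asked of a gene, and is not read here.

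Between the PR lines themselves, 0 of 7 members were called by limma, where 8.62% of all genes were, with 2 members at an unadjusted p under 0.05. These were PIAS1, higher by 0.18 in iKR than in iWT (SE 0.06, limma, adjusted p = 0.10), and SAE1, higher by 0.15 (SE 0.05, limma, adjusted p = 0.11). At an unadjusted p under 0.05, 1369 of all 10911 genes were higher in iKR and 1034 lower. The 95% intervals of the 7 members together spanned -0.25 to 0.31. On the arrays without R5020 alone, the differences were 0.06 for PIAS1 and 0.06 for SAE1 (limma, adjusted p = 0.65 and 0.63). In matched conditions, iKR exceeded iWT most with AP21967 and R5020, by 0.35 for PIAS1 and 0.26 for SAE1. Only PIAS2 had its 4 iKR arrays clear of its 4 iWT arrays, by less than 0.01, where 10.2% of all genes did not overlap. The second PIAS2 probe set overlapped between these lines, at -0.05 in iKR minus iWT (limma, adjusted p over all probe sets = 0.76).

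**Figure D3:**
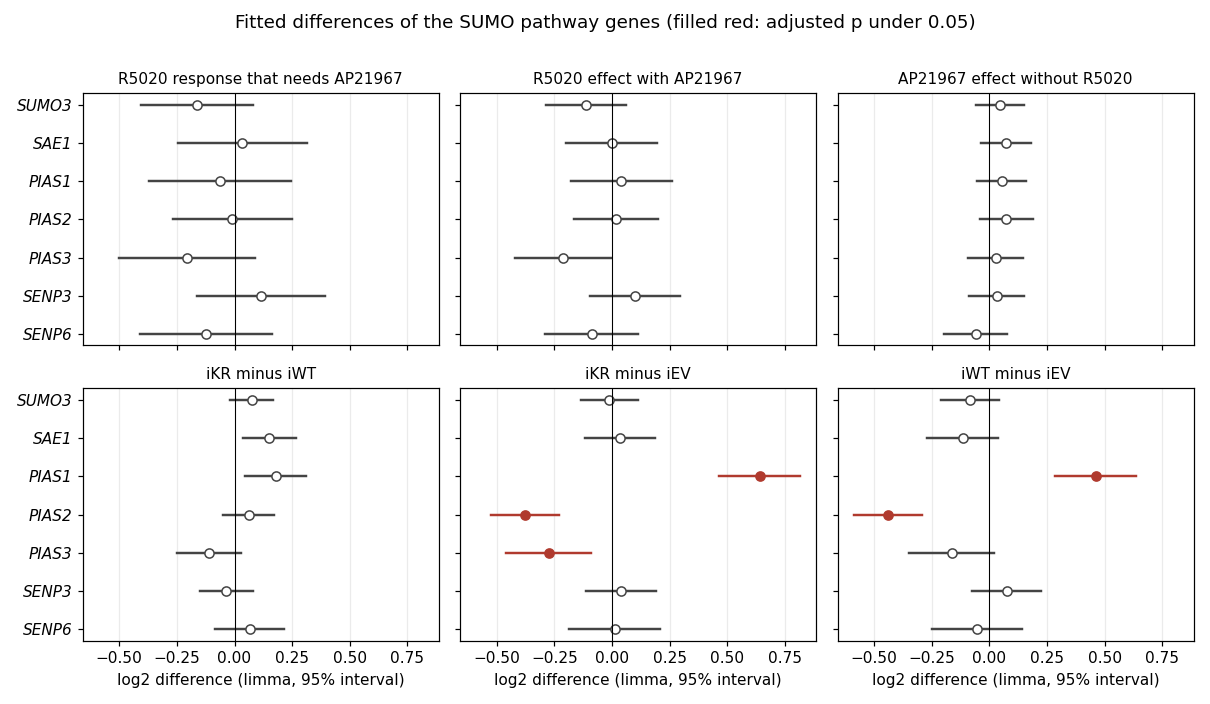
Fitted log2 differences of the 7 genes in the 6 comparisons, each point a limma estimate and each line its 95% interval. Filled red points had an adjusted p under 0.05 over all genes: PIAS1, PIAS2 and PIAS3 in iKR minus iEV, and PIAS1 and PIAS2 in iWT minus iEV.

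R5020 in the presence of AP21967 addressed the progestin response of the induced receptors. Of the 7 members, 0 were called by limma, where 11.5% of all genes were. At an unadjusted p under 0.05, 1335 of all 10911 genes were higher and 1589 lower, and 1 of the 7 members was among them. That was PIAS3, at -0.21 (SE 0.09, limma, unadjusted p = 0.048, adjusted p = 0.18). It was 0.34 lower with R5020 in iKR and 0.08 lower in iWT, and without either iWT array with AP21967, which leaves the iKR pair alone, it was called at -0.34 (limma, adjusted p = 0.027). That value is the difference of 2 single arrays, whose spread is assumed to be that of the arrays without AP21967. For the other 6 members the estimates ran from -0.11 for SUMO3 to 0.10 for SENP3, and the 95% intervals of all 7 together lay between -0.42 and 0.29, that is 0.748 fold to 1.23 fold. The median of the members was -0.00 against 0.01 over all genes.

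In single pairs of arrays, which allow no test, R5020 with AP21967 gave from -0.34 (PIAS3) to 0.22 (SENP3) in iKR and from -0.13 (SUMO3) to -0.00 (SENP6) in iWT. None of the 7 was past 1.5 fold, where 6.19% of all genes were in iKR and 2.61% in iWT. The typical size of these differences, as the median of their absolute values, was 0.17 over the members and 0.13 over all genes in iKR, and 0.08 and 0.13 in iWT. SENP3 was at 9.77 with R5020 and 9.54 with vehicle in iKR, and at 9.70 with R5020 and 9.73 with vehicle in iWT. The brightest PIAS1 probe set was 0.19 higher with R5020 in iKR both with AP21967 and without it. In iWT it differed with R5020 by -0.11 with AP21967 and 0.02 without it. The other PIAS1 probe sets did not repeat the iKR rise, at -0.03 and -0.19 with AP21967 and -0.03 and 0.07 without it. A probe set that SENP3 shares with the readthrough transcript SENP3-EIF4A1, left out by the rule, differed by 0.27 in iKR and by -0.05 in iWT. Probe sets that list SUMO2 with SUMO3, 3 in number and left out likewise, differed by -0.39 to -0.06 in iKR and by -0.12 to -0.03 in iWT, where SUMO3's own differed by -0.09 and -0.13.

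**Figure D4:**
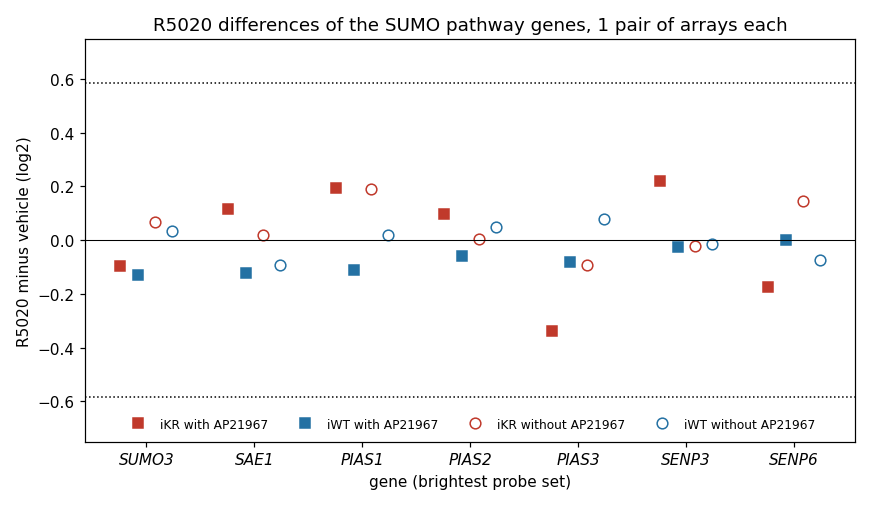
R5020 minus vehicle (log2) of the 7 genes in each line, squares with AP21967 and open circles without, each point the difference of 2 single arrays. Dotted lines mark 1.5 fold. Points lie between -0.34 and 0.22, and those for PIAS3 and SENP3 in iKR with AP21967 lie farthest from 0.

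Whether the response needed AP21967 was asked by the difference between the R5020 effects with and without it. Of the 7 members 0 were called by limma and 0 had an unadjusted p under 0.05, where 2.1% of all genes were called. Estimates ran from -0.21 for PIAS3 to 0.12 for SENP3, with adjusted p from 0.53 to 0.98 (limma). Without AP21967, R5020 gave differences of -0.09 to 0.19 in iKR and -0.09 to 0.08 in iWT.

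On the brightest probe sets, the iKR response minus the iWT response with AP21967 ran from -0.26 for PIAS3 to 0.31 for PIAS1. None of the 7 was past 1.5 fold, where 2.5% of all genes were. The other PIAS1 probe sets were at -0.03 and -0.09. With 1 array per condition this difference was not tested.

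AP21967 alone, compared over the 3 lines without R5020, gave 0 called members by limma, with 0 at an unadjusted p under 0.05. Over all genes 0.0% were called, and at an unadjusted p under 0.05 there were 501 genes up and 480 down. Estimates for the members ran from -0.06 for SENP6 to 0.07 for PIAS2, and their 95% intervals together lay between -0.20 and 0.19, that is 0.873 fold to 1.14 fold. The widest single differences were both in iEV, at -0.20 for SENP6 and 0.15 for PIAS2. All 7 members were at or above 0 in iWT, where the difference ran from 0.00 to 0.12. In that pair of arrays the median over all genes was 0.01. The median of the absolute differences was 0.06 over the members and 0.07 over all genes. The share of all genes at or above 0 was not counted.

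Other enzymes of the pathway were taken from a list of 23 genes, of which 16 had a probe set and passed the level filter. With R5020 and AP21967, 1 rose and 2 fell among them, 3 of 16, where 11.5% of all genes were called. TOPORS, a ligase for both ubiquitin and SUMO, was at 8.74 with R5020 and 9.44 with vehicle in iKR, and at 8.92 with R5020 and 9.24 with vehicle in iWT, both with AP21967, a fall of 0.51 (SE 0.10, limma, adjusted p = 0.013). SENP7, a protease that acts on SUMO chains, fell by 0.50 (SE 0.12, limma, adjusted p = 0.028), on a probe set no brighter than 6.02 on any array. With AP21967, its R5020 difference was -0.74 in iKR and -0.25 in iWT. Without AP21967 it was lower with R5020 too, at -0.21 in iKR and -0.42 in iWT. Without either iKR array with AP21967, SENP7 was at -0.25 (limma, adjusted p = 0.12). ZNF451, a ligase that extends SUMO2 and SUMO3 chains, rose by 0.33 (SE 0.09, limma, adjusted p = 0.044). Its second probe set was at -0.12 (limma, adjusted p over all probe sets = 0.39), and the call ended in 6 of 8 fits with 1 array left out. These 6 left out any of the 4 arrays without AP21967 (limma, adjusted p = 0.074) or either iKR array with AP21967 (0.20, limma, adjusted p = 0.18). The difference of the R5020 effects with and without AP21967 was called for 0 of 16 by limma, with 3 at an unadjusted p under 0.05.

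Between lines, ZNF451 and RNF111 were higher in both PR lines than in iEV, as PIAS1 was. ZNF451 was higher by 0.76 in iKR and 0.67 in iWT than in iEV (SE 0.07 each, limma, adjusted p = 8.8e-05 and 0.00022), and its second probe set by 0.27 in iKR and 0.43 in iWT (limma, adjusted p over all probe sets = 0.039 and 0.0036). RNF111, a ubiquitin ligase that recognises SUMO chains, was higher by 0.45 in iKR and 0.39 in iWT (SE 0.08 each, limma, adjusted p = 0.0030 and 0.0069), though not without the iEV array with AP21967 (limma, adjusted p = 0.077 and 0.13). DESI2, of a family of SUMO isopeptidases, was lower by 0.22 in iWT (limma, adjusted p = 0.037), and its call ended in 8 of 10 fits with 1 array left out, all but those without the iWT or the iKR array with AP21967 and R5020 (limma, adjusted p = 0.058 to 0.35). In all, 2 of 16 rose in iKR, and 2 rose and 1 fell in iWT, where 21.6% and 19.9% of all genes were called. Between iKR and iWT 0 of 16 were called by limma, with 1 at an unadjusted p under 0.05, and with AP21967 alone 0 of 16 were, with 2 at an unadjusted p under 0.05.

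Among 8 measured genes of a list of SUMO-dependent PML body and corepressor proteins, DAXX, a SUMO-binding histone chaperone and corepressor, was higher by 0.61 in iKR and 0.51 in iWT than in iEV (SE 0.08 each, limma, adjusted p = 0.00068 and 0.0021). Its second probe set was at 0.23 in iKR and 0.20 in iWT (limma, adjusted p over all probe sets = 0.043 and 0.081), so the iWT call was not shared by it. HDAC4, a class IIa histone deacetylase, was lower by 0.47 in iKR and 0.57 in iWT (SE 0.11 each, limma, adjusted p = 0.013 and 0.0053). The HDAC4 calls ended without the iEV array without AP21967 (limma, adjusted p = 0.21 and 0.11), and in iKR also without the iKR array with neither agent (adjusted p = 0.079). HIPK2 and PML, named after their values were seen, were higher by 0.22 and 0.21 in iWT (limma, adjusted p = 0.021 and 0.038). That makes 1 higher and 1 lower of 8 in iKR, and 3 higher and 1 lower in iWT, where 21.6% and 19.9% of all genes were called. Of 5 measured E1 subunits and enzymes for other ubiquitin-like proteins, 0 were called between the PR lines and iEV by limma, with 0 in iKR and 1 in iWT at an unadjusted p under 0.05. With R5020 and AP21967, 1 of the 5 fell, where 11.5% of all genes were called: UBA3, the catalytic subunit of the NEDD8 E1, which was named after its values were seen, at -0.53 (SE 0.11, limma, adjusted p = 0.017).

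The genes most like PIAS1 and PIAS2, the members with the largest SD, were sought by the Pearson correlation over the 10 arrays. For PIAS1 these were DUSP22, TRAPPC2L and SPRR3, each at r = 0.98, and 31 genes were above 0.95. For PIAS2 they were RPN2, EI24 and TMEM9B, each at r = 0.98, with 30 genes above 0.95. All of them share with PIAS1 or PIAS2 the step between the PR lines and iEV: DUSP22 averaged 10.29 in the PR lines and 9.99 in iEV, SPRR3 averaged 11.95 in the PR lines and 10.25 in iEV, and RPN2 averaged 13.26 in the PR lines and 13.43 in iEV. The 10 arrays are those of 3 lines and are not independent, so no p is given.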

How the data were processed

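T47D-derived iKR, iWT and iEV cells were profiled on 10 Affymetrix human expression arrays, 1 per condition. In the files the authors deposited, each value is a log2 probe set signal that they obtained by Robust Multi-array Average (affy package, version not given in the sources used here), which corrects background and quantile-normalizes the arrays. RNA was extracted with Trizol per the labels and with an RNeasy kit per the methods. The doses of AP21967 and R5020 are written in different notations and are not given here.

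Of 22277 probe sets, 19070 listed 1 gene, 1043 several and 2164 none in the platform annotation. The probe set of highest mean stood for each gene, and 10911 genes with at least 1 array at log2 6 or more were tested. limma 3.58.1 in R 4.3.3 was fitted across all of them, with Benjamini-Hochberg adjustment and calls under 0.05. The R5020 comparisons used the 8 iKR and iWT arrays with line by AP21967 means (6 parameters, 2 residual degrees of freedom). AP21967 alone used the 6 arrays without R5020, and the lines all 10 arrays with additive treatment terms (4 residual degrees of freedom). With 1 array per condition, lines or conditions stood in for replicates, so p values measure how far a shared effect exceeded its disagreement between lines or conditions, and differences between 2 arrays have no p. The number of arrays limits the precision. RMA scales every array to the same distribution, so a change in total RNA per cell cannot be told apart from none.

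The members and the gene lists were chosen with earlier results of these data known. Genes named besides the members were PGR and FKBP5 as checks, called genes of the other SUMO enzymes, at most 2 of each other list called where a member was, and the 3 closest genes for the 2 most variable members. HIPK2, PML, UBA3 and the luminal markers fall outside this rule and were named after their values were seen. Alternatives were testing all genes or those averaging log2 7, averaging the probe sets of a gene, dropping the _x_at and _s_at types, median centring, cyclic loess, limma with a trend or robust prior, a threshold of 2.0 fold instead of 1.5, leaving out each array, and, chosen after the data were seen, the lines on the 6 arrays without R5020. The limma step was tested on simulated data with log2 changes of 1 and 2. Of changes of 1, it recovered from 64% (the response that needs AP21967) to 100% (iKR minus iWT). Of changes of 2, it recovered 95% to 100%. Smaller changes, the size of those of the members, were not simulated. Python 3.11.15, numpy 2.4.6, pandas 2.3.3 and scipy 1.17.1 were used, with matplotlib 3.10.9 for figures. Promoter windows came from RefSeq (GRCh38.p14).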

Additional observations from a re-analysis of the deposited data

Results flagged for a closer look

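In the presence of AP21967, the brightest probe sets of 4 of 7 members went up with R5020 in iKR and down in iWT. In either order, 35.9% of all genes went in opposite directions in the 2 PR lines. The iKR response exceeded the iWT response by 0.31 (log2) for PIAS1, with 0.19 in iKR and -0.11 in iWT. It exceeded it by 0.25 for SENP3, with 0.22 in iKR and -0.03 in iWT, by 0.24 for SAE1, with 0.12 in iKR and -0.12 in iWT, and by 0.16 for PIAS2, with 0.10 in iKR and -0.06 in iWT. Each response is a difference of 2 single arrays, so none of these differences was tested. The iKR array with AP21967 and R5020 enters all 4, and its mean correlation with the other arrays, 0.989, was the lowest. Its part in the result was not tested. Other PIAS1 probe sets, read in iKR and then iWT, were at -0.03 and -0.00 and at -0.19 and -0.10. The second PIAS2 probe set was at -0.04 and 0.07, and the dimmer SENP3 probe set at -0.06 and -0.16. None of these was up in iKR and down in iWT. The probe set that SENP3 shares with SENP3-EIF4A1 was, at 0.27 and -0.05.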

How the results depend on the processing

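No paired analysis was possible because every condition has 1 array, numbered 1. The count of called members kept within 1.5 times of its value under the other filters, scalings, probe set choices and limma priors in all 6 tested comparisons, with 2 to 3 of the members called for both lines against iEV. When each array was left out in turn, the count ran from 0 to 1 for R5020 with AP21967, from 1 to 3 for iKR minus iEV and from 1 to 3 for iWT minus iEV. PIAS3 in iWT was called without the iKR or the iWT array with AP21967 and R5020 (limma, adjusted p = 0.037) and on the 6 arrays without R5020. Of 105 single-array differences of the brightest probe sets, 1 was past 1.5 fold (PIAS1 in iKR with AP21967 against iEV, 0.60). The count became 0 with the mean of probe sets or a threshold of 2 fold. It became 3 without _x_at and _s_at probe sets, which leaves 4 members. Over all genes, the count of 229 for the response that needs AP21967 became 351 with a trended prior, 149 after cyclic loess and 124 to 1528 with 1 array left out. That of 1253 for R5020 with AP21967 ran from 804 to 1460 and, with 1 array left out, from 1043 to 2214. For iKR minus iWT 940 became 477 to 1187 with 1 array left out and 547 to 1057 otherwise. For iKR minus iEV 2356 became 1026 to 3117 and 1437 to 2809, and for iWT minus iEV 2167 became 976 to 2901 and 1298 to 2602. AP21967 alone gave up to 3. No called value changed sign.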
